A study of Mus musculus with 24 samples.

Results

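Collagen chains are encoded by genes named Col, a type number, a and a chain number, and all 44 genes so named among the 35976 genes of the expression tables are described here. They were chosen by name alone. Levels are CPM (the authors' expected counts relative to each library's scaled total), scaled over all 24 libraries, unless the authors' length-corrected TPM (transcript abundance relative to the library) are named.

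The study used CT26, a mouse colon carcinoma line that grows as a transplant in BALB/c mice, with Sun1 knocked out or intact. Sun1 encodes an inner nuclear membrane protein that takes part in linking the nucleus to the cytoskeleton. RNA was taken from cells in culture (1 library each of the knockout line and of control line 1 and control line 2), from whole subcutaneous tumors at day 14 (7 knockout, 8 control line 1) and from tumor cells isolated from day 14 tumors with a mouse tumor cell kit (2 libraries of each line). Control line 2 has no whole tumors, and both control lines are labelled wildtype for Sun1. The knockout is a single line, so its genotype and the line itself cannot be told apart. The labels do not say whether replicates came from separate mice, and the p-values given reflect spread among libraries that may be technical repeats.

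Collagens are proteins of 3 chains wound into a triple helix in the endoplasmic reticulum. Fibrillar types such as I, III and V form the fibers of connective tissue, type IV forms the network of basement membranes, and type VI forms beaded microfilaments near cells. In tumors fibroblasts are the best known source of fibrillar collagen, and vessels lay down type IV.

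Library totals ran from 14140769 to 24651279 expected counts in tumors, 17068356 to 22593612 in purified cells and 18832201 to 20716917 in culture. Sun1 stood at 50.5 to 64.8 CPM in knockout tumors against 169 to 192 in control tumors, and it was lower in the knockout line in the other settings too. The colon label was checked against 11 intestinal epithelial markers. Krt20 reached 98.4 to 112 CPM and Cdx2 2.37 to 4.13 CPM in culture, whereas Epcam, Krt19, Cdx1, Cdh1 and Muc2 were at 0 there. Krt18 ran from 0.592 to 119 CPM over the cultured libraries, and Krt8, Vil1 and Cdh17 stayed at or below 0.937 CPM. Several of 15 fibroblast markers were high in culture, such as Cd34 at 823 to 1284 CPM, Gsn at 330 to 365 and Prrx1 at 169 to 249, so these do not separate CT26 from host fibroblasts. Others on that list were low in culture, such as Thy1 at most 0.165 CPM, Lum at most 0.219, Fap at most 0.246 and Fbln1 at 0. Thy1 is also made by T cells, and no library of host fibroblasts was analysed here. The 16 leukocyte markers summed to 975 to 3153 CPM in tumors, 7.80 to 34.5 in purified cells and 7.49 to 8.45 in culture. Libraries of whole tumors mix tumor and host cells, so fewer cells of a type and less RNA per cell cannot be told apart.

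The collagen chains together held 0.243% to 0.305% of the counts in culture, 0.342% to 0.561% in whole tumors and 0.485% to 0.789% in purified cells. Of the 44 chains, 16 were at 1 CPM or more in all 3 cultured libraries, 14 were below 0.1 CPM in all 3 and the other 14 lay between. In no library did 15 chains reach 1 CPM: Col2a1, Col4a3, Col4a4, Col4a6, Col6a4, Col6a5, Col6a6, Col8a2, Col9a1, Col9a2, Col11a1, Col19a1, Col22a1, Col25a1 and Col26a1. Col9a1, a cartilage chain, had 0 counts in every library. Low counts kept 13 chains out of every test.

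Per transcript length, Col1a2 had the highest median TPM of the chains in each setting. It encodes the second chain of type I collagen. Its median was 323 TPM in culture (range 245 to 326), 266 in tumors (231 to 426) and 587 in purified cells (520.4 to 734). Col1a1, which supplies 2 of the 3 chains of the usual type I trimer, was below Col1a2 in 24 of 24 libraries, and the ratio of Col1a2 to Col1a1 in TPM was 3.01 to 7.87. Types I and III together made up 53.4% to 66.8% of the summed collagen TPM over all 24 libraries. In purified cells Col3a1 (213 TPM), Col6a1 (113) and Col1a1 (112) came next by median TPM. In culture the next chains were Col4a1 (61.8 TPM), Col1a1 (47.2) and Col3a1 (37.4). Neighbors in each of these orders behind Col1a2 overlapped in range.

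Start sites are shown for the most abundant chain, for the paired basement membrane chains and for a chain whose RNA was nearly restricted to whole tumors. The sequences are RefSeq windows on GRCm38.p6, from 250 bases before to 50 bases after the annotated start. The Col1a2 window is chr6:4505368-4505667 on the plus strand, and its capitals mark the motif CCAAT on either strand.

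Col1a2: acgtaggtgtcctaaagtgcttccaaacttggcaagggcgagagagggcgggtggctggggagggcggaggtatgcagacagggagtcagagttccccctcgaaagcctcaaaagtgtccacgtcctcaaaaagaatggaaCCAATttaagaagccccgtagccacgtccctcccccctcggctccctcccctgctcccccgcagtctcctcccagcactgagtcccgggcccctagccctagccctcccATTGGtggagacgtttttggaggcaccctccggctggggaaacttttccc

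Col4a1 and Col4a2 lie head to head on chromosome 8 and their windows overlap. The Col4a2 window is chr8:11312555-11312854 on the plus strand, and its capitals mark the 78 bases that it shares with the Col4a1 window. The Col4a1 start base, on the minus strand, is 21 bases downstream of the Col4a2 start base.

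Col4a2: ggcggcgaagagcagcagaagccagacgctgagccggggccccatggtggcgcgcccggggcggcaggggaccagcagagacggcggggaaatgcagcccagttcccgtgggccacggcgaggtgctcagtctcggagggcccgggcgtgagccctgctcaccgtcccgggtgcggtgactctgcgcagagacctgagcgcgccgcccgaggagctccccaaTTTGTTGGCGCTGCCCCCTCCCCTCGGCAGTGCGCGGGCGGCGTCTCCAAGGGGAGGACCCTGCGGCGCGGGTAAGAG

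Col15a1 encodes a chain of vascular and muscle basement membrane zones. Its window is chr4:47207762-47208061 on the plus strand, and on neither strand does it hold the CCAAT motif, the TATA motif (TATAAA) or the GC box core (GGGCGG). The gene as a whole begins at chr4:47207655 in RefSeq and chr4:47208161 in GENCODE M21, and both lie outside this window. Other starts of the gene are not shown.

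Col15a1: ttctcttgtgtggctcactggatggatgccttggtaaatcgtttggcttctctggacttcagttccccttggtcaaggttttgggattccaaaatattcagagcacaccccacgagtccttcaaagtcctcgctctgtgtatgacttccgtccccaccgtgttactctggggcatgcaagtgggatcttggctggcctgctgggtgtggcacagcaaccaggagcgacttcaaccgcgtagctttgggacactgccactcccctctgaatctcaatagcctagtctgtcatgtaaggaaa

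RefSeq windows were matched for 35 of the 44 chains, 38 windows in all. CCAAT was in 13 of the 38 windows (34.2%) and in 37.4% of all 32851 windows of the table. TATAAA was in 5 (13.2%) against 13.6% of all windows, and GGGCGG in 23 (60.5%) against 35.7%. These are matches of letters and not binding sites.

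**Figure D1:**
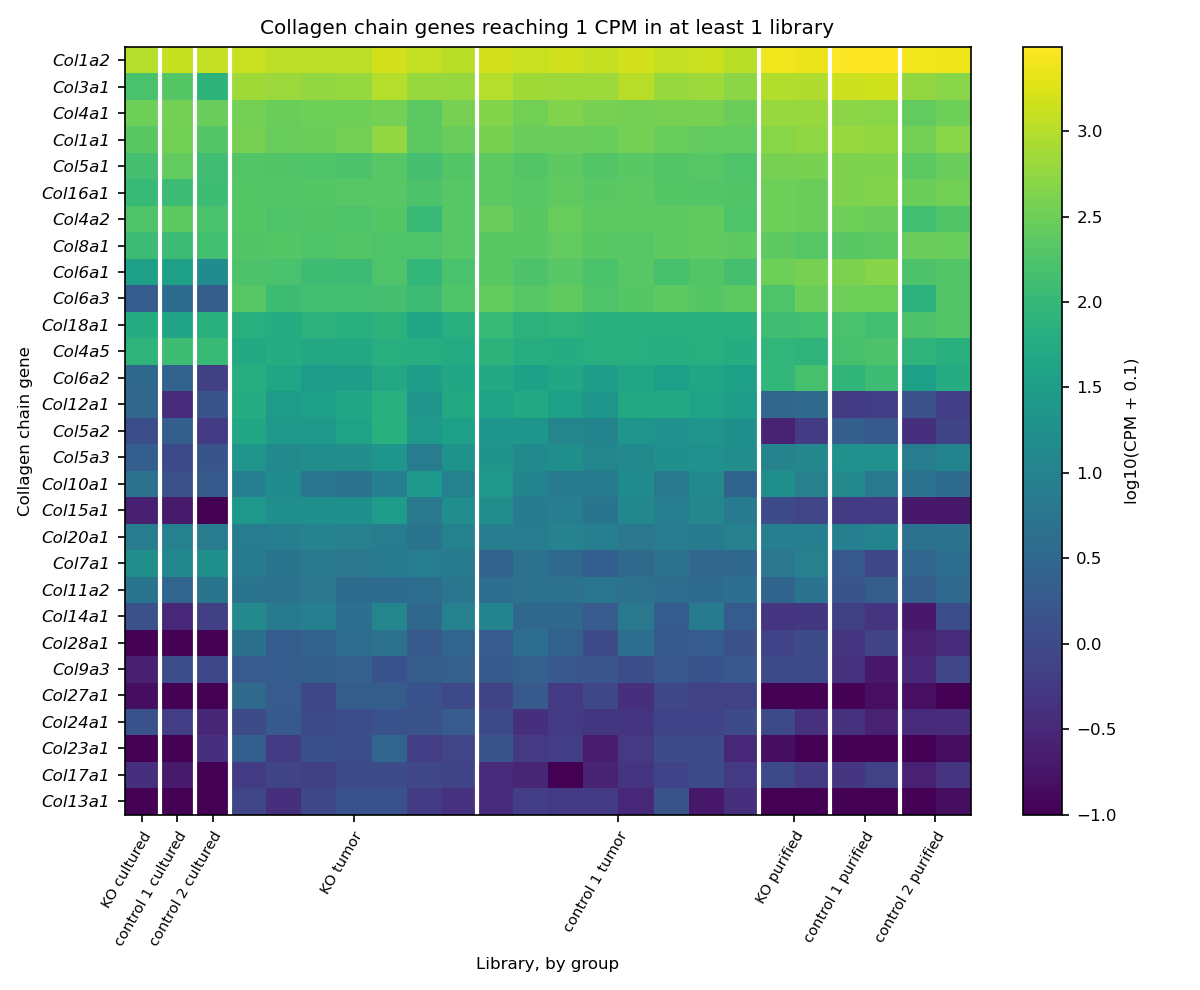
Levels of the 29 chains that reached 1 CPM in at least 1 library, as log10(CPM + 0.1) by color, with 1 column per library grouped by line and setting and 1 row per chain ordered by mean CPM. Col12a1, Col5a2 and Col15a1 are bright only in the 15 tumor columns, whereas Col6a1, Col6a2 and Col6a3 are darker in the 3 cultured columns than in tumors and purified cells.

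Whole tumors were compared with purified cells of the same line to see which chains have more RNA in tissue that still holds host cells. In control line 1, 11 of 30 tested chains were higher in tumors, where 30.2% of all tested genes were higher, and 11 were lower, where 23.7% were. In the knockout line, with separate libraries, 9 of 30 were higher (31.1% of all genes) and 11 lower (25.3%). The shares of higher chains were near the background. The median log2 difference over the tested chains was -0.04 in control line 1, against 0.06 over all genes, and -0.09 in the knockout line, against 0.08 over all genes. Both medians were the same with the chains at 0 counts placed at their lower bound. This could not come out otherwise, since each bound also lay above the median. Adjusted p-values here and below are from edgeR's quasi-likelihood test with Benjamini-Hochberg adjustment over all genes tested.

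In both lines 9 chains were higher in tumors than in purified cells: Col5a2, Col9a3, Col12a1, Col13a1, Col14a1, Col15a1, Col23a1, Col27a1 and Col28a1. None of the 9 belonged to the 16 chains present in all cultured libraries. Some of these chains passed the filter on low counts through the tumor libraries alone, so their number is a description. The share of all genes higher in both lines, or so split by level in culture, was not worked out. Endothelial markers summed to 89.3 to 175 CPM in tumors and 7.53 to 15 in purified cells, pericyte and smooth muscle markers to 16.5 to 63.1 against 1.70 to 5.81. The 15 fibroblast markers divided, with 6 higher and 6 lower in tumors in control line 1 and 7 higher and 5 lower in the knockout line. Thy1, the marker of that list with the smallest p, stood at 33.5 to 76.7 CPM in tumors against 0.145 to 1.26 in purified cells. The part of host cells in these differences was not tested.

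Among the fibrillar chains this group held Col27a1, described below with the chains of few reads, and Col5a2, a chain of the type V trimers that regulate fibril diameter. The level of Col5a2 in knockout tumors was 26.0 CPM at the lowest, 36.1 at the median and 70.0 at the highest. Control tumors had 10.5, 20.2 and 22.9 CPM. Purified cells had 0.184 and 0.532 CPM in the knockout line, 2.18 and 1.64 in control line 1 and 0.316 and 0.739 in control line 2. Cultured cells had 1.08, 2.19 and 0.516 CPM in the knockout line, control line 1 and control line 2. Every tumor was thus far above every library of isolated or cultured cells. The log2 difference between tumors and purified cells was 3.31 ± 0.39 (SE, 8 against 2 libraries, edgeR adjusted p = 1.92e-05) in control line 1 and 6.79 ± 0.77 (7 against 2, edgeR adjusted p = 9.63e-05) in the knockout line.

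Col5a1, the partner chain of Col5a2 in type V, went the other way. Knockout tumors had 145, 184 and 214 CPM (lowest, median, highest) and control tumors 183, 202 and 242. Purified cells had 367 and 385 CPM in the knockout line, 429 and 426 in control line 1 and 227 and 291 in control line 2, and cultured cells 149, 261 and 130.0. Tumors of each line lay below the purified cells of that line without overlap. On the log2 scale it fell by 1.00 ± 0.09 (edgeR adjusted p = 2.83e-07) in control line 1 and fell by 1.00 ± 0.10 (edgeR adjusted p = 1.79e-06) in the knockout line. On the TPM scale the ratio of Col5a1 to Col5a2 was 2.42 to 17.1 in tumors, 159 to 1854 in purified cells and 95.0 to 196 in culture. Col5a3, the third type V chain, was called in neither line.

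Col3a1, the chain of type III collagen, is the genomic neighbor of Col5a2. The genes lie on opposite strands of chromosome 1, Col3a1 at chr1:45311538-45349706 and Col5a2 at chr1:45374321-45503282 (GENCODE M21, GRCm38), with 24614 bases between them. Col3a1 was at 162, 201 and 79.7 CPM in cultured knockout, control 1 and control 2 cells. Tumors ranged from 521 to 1029.5 CPM. Purified cells had 949 and 904 CPM in the knockout line, 1427 and 1455 in control line 1 and 587 and 497 in control line 2. Col3a1 was therefore measured well above 0 in cultured cells, which hold no host tissue, where Col5a2 was at 0.516 to 2.19 CPM. It was lower in tumors than in purified cells by -0.92 ± 0.19 on the log2 scale in control line 1 (edgeR adjusted p = 0.00163) and by -0.42 ± 0.16 in the knockout line (edgeR adjusted p = 0.0378). The knockout call was lost in 8 of 9 fits without 1 library, with adjusted p up to 0.177, and it held only without knockout tumor 5. It was also lost with DESeq2 size factors (0.0572), library size alone (0.0576), no filter (0.0601) and upper quartile scaling (0.124).

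Col1a2 was also lower in tumors in both lines, by -1.16 ± 0.11 in control line 1 and -0.95 ± 0.11 in the knockout line on the log2 scale. Its purified levels were 2482 and 2263 CPM in the knockout line, 3010.2 and 3111 in control line 1 and 2463 and 2408 in control line 2. Tumors spanned 1060.3 to 1541 CPM and cultured cells 990.2 to 1270.3. Col1a1 had 236 to 586 CPM in knockout tumors and 255 to 393 in control tumors. Purified cells had 499.8 and 556 CPM of Col1a1 in the knockout line, 632 and 572 in control line 1 and 358 and 503 in control line 2, and cultured cells 219, 343 and 197. Col1a1 was lower in control tumors (-0.97 ± 0.13) and did not pass the test in the knockout line (-0.58 ± 0.29, edgeR adjusted p = 0.116).

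Fibril-associated chains, which sit on the surface of fibrils rather than form them, gave 3 of the 9 chains higher in tumors: Col9a3, Col12a1 and Col14a1. Col12a1, a long chain of tendon and stroma, had 22.0, 46.9 and 71.3 CPM in knockout tumors and 22.7, 39.4 and 56.4 in control tumors. Purified cells had 2.89 and 3.29 CPM in the knockout line and 0.485 to 1.21 in the control lines. Tumors and purified cells did not overlap. The log2 difference was 6.29 ± 0.54 in control line 1 and 3.91 ± 0.58 in the knockout line. Col14a1 had 1.83 to 12.9 CPM over the 15 tumors and 0.105 to 1.11 over the 6 purified libraries. Its call in control line 1 (3.21 ± 0.95) was lost without either purified library, with adjusted p of 0.0854 and 0.127. Col9a3 stayed at or below 2.33 CPM, and its knockout call was lost without either purified library (adjusted p = 0.0631 and 0.0617). Col16a1, in the same structural family, was lower in tumors (-0.96 ± 0.09 and -0.59 ± 0.08) and was present in culture at 109.9 to 124 CPM.

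Of the multiplexins, which carry endostatin-like ends, Col15a1 and Col18a1 split in the same manner. Col15a1 had 6.07, 17.2 and 30.1 CPM in knockout tumors and 5.54, 8.11 and 16.6 in control tumors. It had 0.964 and 0.774 CPM in purified knockout cells, 0.485 and 0.477 in control line 1, 0.105 and 0.0924 in control line 2, and at most 0.148 in culture. Its log2 difference was 4.34 ± 0.55 in control line 1 and 4.43 ± 0.68 in the knockout line. Col18a1 was lower in tumors by -0.89 ± 0.13 and -0.98 ± 0.14, with 46.3 to 107 CPM in tumors, 131 to 196 in purified cells and 42.6 to 69.7 in culture.

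The transmembrane chains Col13a1 and Col23a1 and the fibrillar chain Col27a1 had almost no reads in purified cells. Col23a1 had 6 counts (0.310 CPM) in cultured control line 2, within its range of 0.122 to 2.83 CPM over the tumors. Col13a1 had 77 counts over the 8 control tumors and 101 over the 7 knockout tumors and 0 in the purified cells of both lines. Against a floor of 3 counts over the purified group it was at least 5.88-fold higher in control tumors and at least 10.9-fold higher in knockout tumors. Col27a1 had 235 counts in knockout tumors against 0, at least 25.3-fold higher, and 118 in control tumors against 1, a ratio of 27.0 (95% exact interval 4.76 to 1076). Col23a1 had 99 counts in control tumors against 0, at least 7.56-fold higher, and 172 in knockout tumors against 1, a ratio of 55.6 (9.84 to 2207). These bounds and intervals cover counting error only. The Col13a1 call in control line 1 was lost without purified replicate 2 (adjusted p = 0.0556). Col28a1 had 0.975 to 4.70 CPM in tumors and 0.158 to 1.02 in purified cells, and its control call was lost without purified replicate 1 (adjusted p = 0.107).

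In both lines 10 chains were lower in whole tumors than in purified cells: Col1a2, Col3a1, Col4a1, Col4a5, Col5a1, Col6a1, Col6a2, Col6a3, Col16a1 and Col18a1. Of these, 9 belonged to the 16 chains present in all cultured libraries, and the tenth, Col6a2, was at 0.620 to 3.11 CPM in culture. The share of all genes lower in both lines, or so split by level in culture, was not worked out. These counts are therefore a description and not a trait shown to be particular to collagens. Type IV chains differed among themselves. Col4a1 had 234, 323 and 368 CPM in knockout tumors and 306, 370.0 and 459 in control tumors. Purified cells had 639 and 629.9 CPM of Col4a1 in the knockout line, 508 and 485 in control line 1 and 258 and 318 in control line 2, and cultured cells 321, 365 and 297. Col4a5 was lower by -1.27 ± 0.09 in control line 1 and -0.54 ± 0.11 in the knockout line, whereas Col4a1 was lower by -0.36 ± 0.11 and -0.95 ± 0.12. The Col4a1 call in control line 1 was lost without either purified library (adjusted p = 0.122 and 0.0588). Col4a2 was lower in the knockout line (-0.72 ± 0.17) and did not pass in control line 1 (-0.30 ± 0.13, edgeR adjusted p = 0.062). Col4a5 reached 84.9 to 124 CPM in culture, while Col4a6, whose start is 1343 bases away on the X chromosome in the opposite direction, was at 0 there.

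Type VI chains were lower in tumors as well. Col6a1 was lower by -1.18 ± 0.13 in control line 1 and -1.22 ± 0.20 in the knockout line, Col6a2 by -1.34 ± 0.16 and -1.51 ± 0.29, and Col6a3 by -0.51 ± 0.11 and -0.61 ± 0.23. The Col6a3 call in the knockout line was lost without purified knockout replicate 2, where the difference was -0.20 (adjusted p = 0.541), and without any 1 of knockout tumors 2 to 6. It was also lost with library size alone (0.0514), DESeq2 (0.0525), upper quartile scaling (0.0855) and no filter (0.0903). In control line 1 alone Col7a1 (1.52 ± 0.37) and Col11a2 (1.45 ± 0.26) were higher in tumors, and the Col7a1 call was lost without purified control 1 replicate 2 (adjusted p = 0.0726). Col10a1, the network chain of hypertrophic cartilage, overlapped between tumors (2.67 to 24.8 CPM) and purified cells (3.69 to 17.1), as did Col20a1 (5.27 to 9.73 against 4.63 to 10.4).

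**Figure D2:**
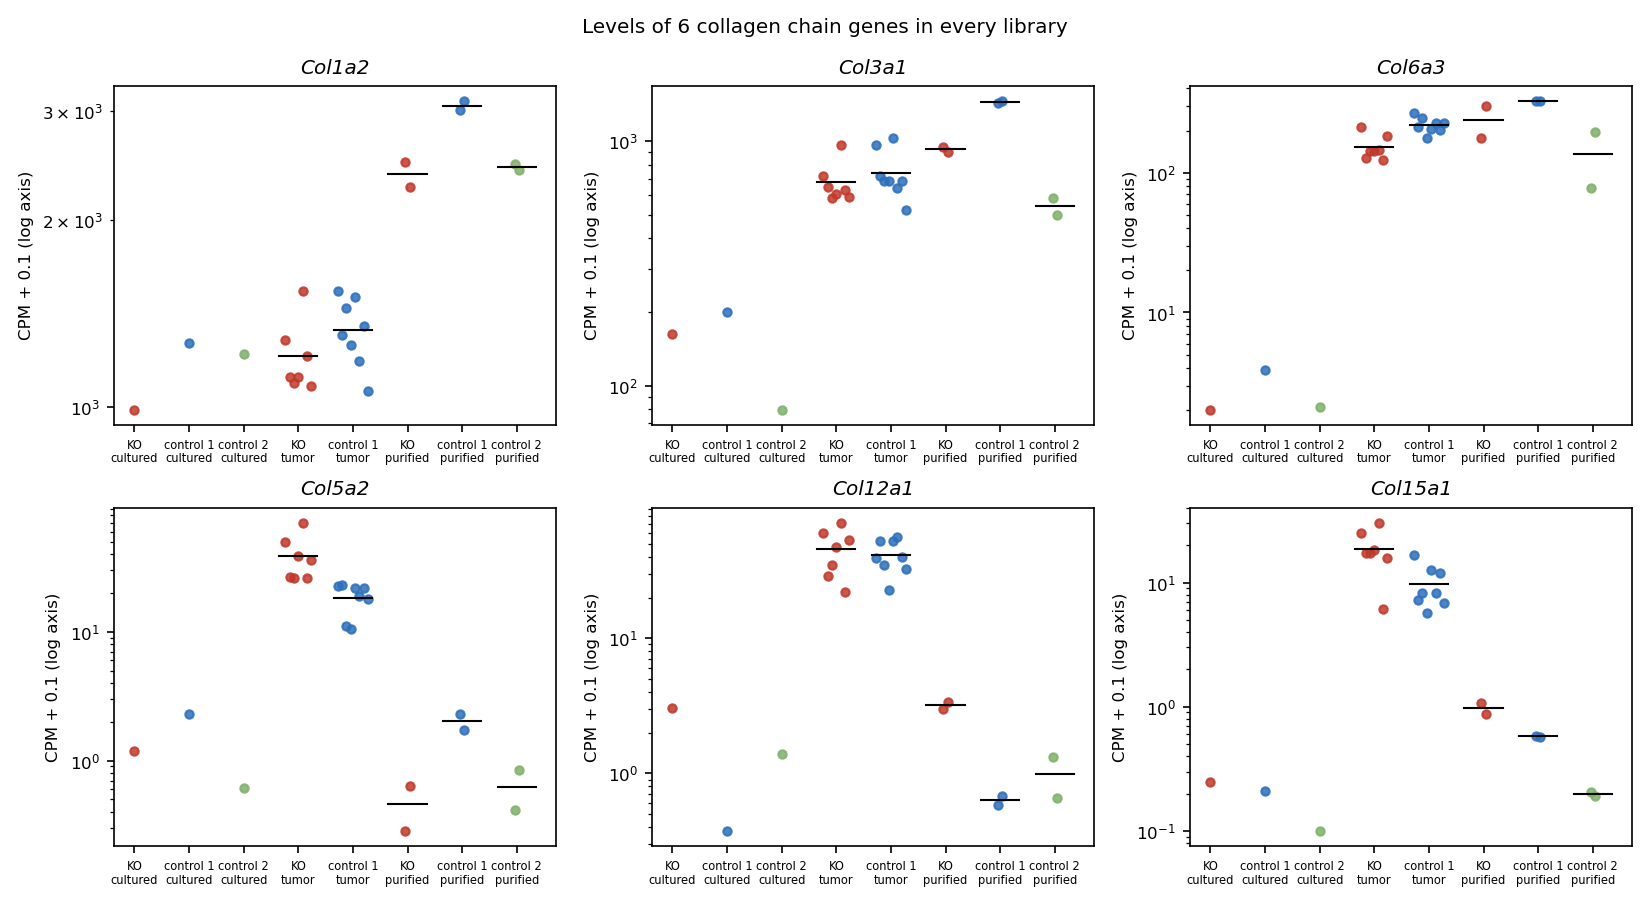
CPM + 0.1 on log axes for 6 chains in every library, by line and setting, with black bars for group means where a group has more than 1 library. Col1a2, Col3a1 and Col6a3 are higher in purified cells than in cultured cells of each line, whereas Col5a2, Col12a1 and Col15a1 are high only in tumors.

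Purified cells were compared with cultured cells of the same 3 lines, with the line as a term, to see which chains have more RNA after growth in the mouse. Of 25 tested chains 16 were higher in purified cells, where 22.6% of all tested genes were higher, and 2 were lower, where 21.7% were. The share of higher chains, 64.0%, was above the background. The median log2 difference was 1.02 over the tested chains and 0.01 over all genes.

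The 3 main type VI chains had the largest tested differences apart from Col28a1, which had 0 counts in culture and 66 in purified cells, at least 10.7-fold higher. Col6a3 was at 1.92, 3.78 and 2.01 CPM in cultured knockout, control 1 and control 2 cells. In purified cells it was at 178 and 301 CPM in the knockout line, 323 and 323 in control line 1 and 77.5 and 195 in control line 2. Every purified library was above every cultured one, and the log2 difference was 6.50 ± 0.49 (6 against 3 libraries, edgeR adjusted p = 0.000126). Col6a2 went from 0.620 to 3.11 CPM in culture to 33.9 to 155 in purified cells (5.51 ± 0.38, edgeR adjusted p = 3.16e-05). Col6a1 went from 15.2 to 35.9 CPM to 174 to 469 (3.50 ± 0.12, edgeR adjusted p = 2.7e-09). Type VI chains made up 0.939% to 2.35% of the summed collagen TPM in culture and 6.45% to 14.1% in purified cells. Col6a4, Col6a5 and Col6a6, which can replace Col6a3 in the trimer, stayed at or below 0.644 CPM in all libraries.

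Of 8 tested fibrillar chains 5 were higher in purified than in cultured cells and 1, Col11a2, was lower. Col5a3 rose from 0.932 to 2.07 CPM in culture to 7.79 to 18.7 in purified cells (3.06 ± 0.29), and Col3a1 rose by 2.72 ± 0.10 (edgeR adjusted p = 4.65e-09). Col1a2, Col1a1 and Col5a1 rose by 1.19 ± 0.09, 1.08 ± 0.12 and 1.02 ± 0.12. Col5a2 did not pass (-0.57 ± 0.46). Col16a1, Col18a1 and Col8a1, a chain of endothelial and corneal networks, rose by 1.59 ± 0.10, 1.45 ± 0.12 and 1.00 ± 0.08. Col10a1 rose by 1.79 ± 0.40 and Col17a1 by 1.94 ± 0.68.

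Col7a1, the anchoring fibril chain that ties epithelial basement membranes to the stroma, was lower after growth in the mouse. It was at 16.4, 12.6 and 17.2 CPM in cultured knockout, control 1 and control 2 cells and at 6.06 and 9.05, 1.64 and 0.794, and 2.84 and 4.20 in the purified cells of these lines. All purified libraries were below all cultured ones (-2.19 ± 0.37, edgeR adjusted p = 0.00169). Of these calls 4 depended on single libraries. Col4a1 (0.46 ± 0.16) and Col4a2 (0.38 ± 0.14) were each lost in 7 of 9 fits without 1 library, with adjusted p up to 0.198 and 0.26, and held only without cultured control 2 or purified control 2 replicate 1. Col11a2 (-0.72 ± 0.27) was lost without any 1 cultured library or without purified replicate 1 of any line (adjusted p up to 0.179). Col17a1 was lost without cultured control 1, cultured control 2 or purified control 2 replicate 2 (adjusted p up to 0.127). Of 9 tested leukocyte markers 3 were higher in purified than in cultured cells (Tyrobp, C1qb and Itgam) and 0 lower, and of 13 tested fibroblast markers 9 were higher and 0 lower. Thy1 reached at most 1.26 CPM and Fbln1 0.159 CPM in purified cells, where Lum reached 60.3 and Dcn 660.1. The part of any remaining host cells in these differences was not tested.

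The knockout effect was first read in whole tumors. Of 28 tested chains 5 were higher in knockout tumors (Col5a2, Col7a1, Col15a1, Col24a1 and Col27a1), where 18.1% of all tested genes were higher, and 4 were lower (Col4a2, Col6a1, Col6a3 and Col8a1), where 19% were. At 17.9% and 14.3% both shares were close to or below the background. The median log2 difference was 0.06 over the tested chains and 0.01 over all genes.

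Col5a2 was higher in knockout tumors by 1.09 ± 0.25 on the log2 scale (7 against 8 tumors, edgeR adjusted p = 0.00358), and its levels given above did not overlap between genotypes. Col7a1 had 5.53, 6.68 and 8.30 CPM in knockout tumors and 2.07, 3.26 and 4.69 in control tumors. These groups did not overlap either, and the log2 difference was 0.99 ± 0.16 (edgeR adjusted p = 9.78e-05). Col15a1 (0.96 ± 0.30), Col24a1 (1.08 ± 0.28) and Col27a1 (1.21 ± 0.34) overlapped between genotypes. Col24a1, a minor fibrillar chain, had 0.905, 1.23 and 1.83 CPM in knockout tumors and 0.306, 0.589 and 0.980 in control tumors. Col27a1, another minor fibrillar chain, had 0.854, 1.84 and 3.45 CPM against 0.322, 0.689 and 1.68.

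Among the lower chains only Col8a1 had groups that did not overlap, with 176, 191 and 211 CPM in knockout tumors and 215, 228 and 256 in control tumors (-0.26 ± 0.05, edgeR adjusted p = 0.00104). The share of all tested genes without overlap was not worked out, here or in the other comparisons. Lack of overlap is therefore a description and not a trait shown to be particular to these chains. Col6a3 had 122, 143 and 211 CPM against 176, 219.9 and 267 (-0.51 ± 0.11, edgeR adjusted p = 0.00166). Col4a2 had 113, 188 and 214 CPM against 183, 237 and 297 (-0.40 ± 0.12, edgeR adjusted p = 0.0138). Col6a1 had 94.2, 157 and 178 CPM against 147, 184 and 224 (-0.36 ± 0.13, edgeR adjusted p = 0.0445), and this call was lost in 8 of 15 fits without 1 tumor (control 1, 2, 3, 5 or 7, or knockout 3, 4 or 6), with adjusted p up to 0.0927. It was also lost with upper quartile scaling (0.0781), library size alone (0.0553) and no filter (0.0891). The third main type VI chain, Col6a2, did not pass (0.05 ± 0.16), nor did Col1a1 (0.22 ± 0.17), Col1a2 (-0.13 ± 0.09), Col3a1 (-0.12 ± 0.14), Col5a1 (-0.17 ± 0.08) and Col4a1 (-0.22 ± 0.09). With replicate number as a block, 6 chains were higher and 7 lower, where 2436 and 2544 of 13752 genes were. Col3a1 (-0.18, edgeR adjusted p = 0.0416), Col4a1 (-0.26, 0.0138) and Col5a1 (-0.20, 0.023) were then called lower and Col14a1 (0.89, 0.000845) higher. Col6a1 passed there at 0.000815. The labels do not say that replicate numbers pair tumors, and 0 of 7 knockout tumors correlated best with the control tumor of their own number. The calls with this block therefore lend no weight to those without it.

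In the authors' deposited table for tumors 8 of 40 listed chains were higher in the knockout and 4 lower at adjusted p under 0.05, where 14.3% of all listed genes were higher and 13.9% lower. The higher ones were Col5a2, Col7a1, Col15a1, Col17a1, Col23a1, Col24a1, Col25a1 and Col27a1, and the lower ones Col4a2, Col6a1, Col6a3 and Col8a1.

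Host cell markers moved with genotype in the same tumors. Of 14 tested leukocyte markers 7 were higher in knockout tumors and 0 lower, and of 10 tested endothelial markers 5 were higher and 0 lower. Of 7 tested skeletal muscle markers 6 were higher and 0 lower, and of 15 fibroblast markers 5 were higher and 5 lower. Leukocyte markers summed to 1342 to 3153 CPM in knockout tumors and 975 to 2408 in control tumors, and endothelial markers to 113 to 175 against 89.3 to 115. The mitochondrial share of counts was 4.33% to 5.28% in knockout tumors and 2.56% to 4.08% in control tumors, and muscle markers reached 140.4 CPM in a knockout tumor against at most 19 in controls. The mean log2 level of Ptprc and Pecam1 was 6.43 to 6.87 in knockout tumors and 5.62 to 6.23 in control tumors, so genotype held 76.2% of its variance. With this mean as a term 0 of the 28 chains were called, where 0.327% of all genes were higher and 1.2% lower. Of the 9 chains called without it, Col5a2 stood at -0.030, Col27a1 at -0.53 and Col15a1 at 0.31 with the term. The other 6 stood at 1.04 (Col24a1), 0.99 (Col7a1), -0.60 (Col6a3), -0.56 (Col6a1), -0.33 (Col4a2) and -0.21 (Col8a1), each in its former direction. Their adjusted p-values in edgeR were 0.149 (Col7a1) to 0.604 (Col4a2). With the mean of Pdgfra and Pdgfrb as the term, 8 chains were higher (15.8% of all genes) and 2 lower (16%). Col14a1, Col23a1 and Col6a2 were then called higher as well, and Col4a2 and Col6a1 were no longer called. Pdgfra had 9.40 to 12.9 CPM in culture and 31.6 to 100.4 in purified cells, against 29.6 to 51.4 in knockout and 40.3 to 66.9 in control tumors. Pdgfrb had 65.7 to 70.4 and 83.8 to 139 CPM, against 80.4 to 97.0 and 61.7 to 124. The Pdgfra and Pdgfrb term therefore does not separate host stroma from CT26 cells. What part host cells had in the knockout differences cannot be told apart from genotype in the Ptprc and Pecam1 fit.

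In purified cells 1 of 25 tested chains was higher in the knockout line than in both control lines pooled (2.26% of all tested genes were higher) and 0 were lower (2.29%). The called chain was Col12a1. Its levels were 2.89 and 3.29 CPM in the knockout line, 0.485 and 0.582 in control line 1 and 1.21 and 0.554 in control line 2, with the knockout libraries above the 4 controls (2.12 ± 0.45, edgeR adjusted p = 0.0335). The call was lost in 5 of 6 fits without 1 library, with adjusted p between 0.0539 and 0.347, and held only without purified control 2 replicate 1. Its size stayed between 1.98 and 2.51 in these fits. Cultured cells had 2.96 CPM of Col12a1 in the knockout line against 0.274 and 1.29, and in culture the difference did not pass. Dpt, a fibril-binding dermatopontin gene, was the single called gene of 13 fibril partners in purified cells, at 3.05 on the log2 scale. Skeletal muscle markers summed to 5.37 to 39.9 CPM in purified knockout cells. Control line 1 had 3.64 to 5.08 CPM of them and control line 2 had 2.91 to 4.42. Of 5 tested muscle markers 1, Myh4, was higher and 0 lower. Of 9 tested leukocyte markers 0 were higher and 1, Lyz2, was lower. The part of any remaining host cells in these differences was not tested.

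The control lines differed from each other, and the pooled comparison depended on it. With the 3 lines as separate groups and the knockout set against the mean of the control lines, 5 chains were higher (Col4a1, Col4a2, Col7a1, Col12a1 and Col15a1), where 10.5% of all genes were, and 3 lower (Col4a5, Col16a1 and Col18a1), where 10.1% were. Against control line 1 alone 3 of the 25 were higher (8.32% of all genes) and 6 lower (10.1%). Against control line 2 alone 10 were higher (11% of all genes) and 2 lower (10.5%). Col3a1 was called in opposite directions, -0.63 ± 0.11 against control line 1 (edgeR adjusted p = 0.00216) and 0.78 ± 0.11 against control line 2 (edgeR adjusted p = 0.000404). Col4a1, Col7a1 and Col12a1 were higher than either control line. Col7a1 was 2.66 ± 0.39 above control line 1 and 1.10 ± 0.34 above control line 2, and Col4a1 was 0.36 ± 0.11 and 1.14 ± 0.11 above them. In the authors' deposited table for purified cells the same 3 chains, Col4a1, Col7a1 and Col12a1, were higher in the knockout line at adjusted p of 0.037, 0.0101 and 0.00134, and 0 were lower, of 34 listed chains. Of all its listed genes, 3.82% were higher and 4.18% lower.

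In culture 0 of 23 tested chains differed between the knockout library and the control lines, as did 0% of all genes in edgeR's quasi-likelihood test. That fit has 1 knockout library and 1 residual degree of freedom. At an unadjusted p under 0.05 there were 1 chain and 659 genes, and DESeq2 called 0 chains. Col10a1 had the smallest p of the chains, with 4.83 CPM in the knockout library against 1.21 and 1.81.

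**Figure D3:**
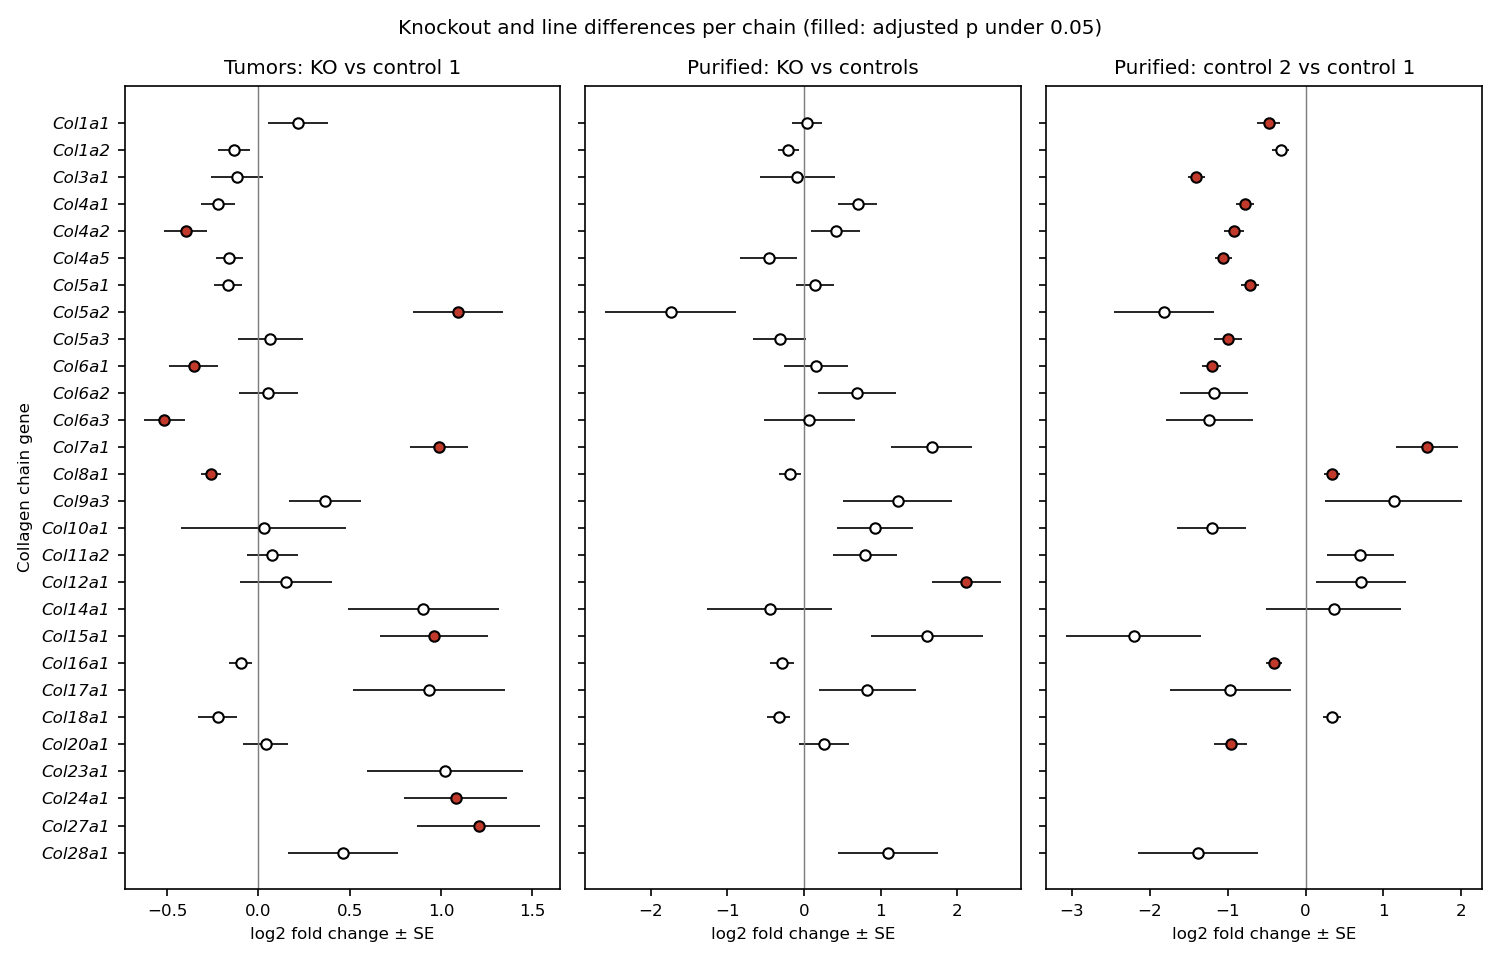
Log2 fold change with its standard error for each tested chain, for knockout against control 1 tumors (28 chains), purified knockout against pooled control cells (25 chains) and purified control 2 against control 1 cells (25 chains), with filled points for adjusted p under 0.05. Filled points number 9, 1 and 12 in the 3 panels, and the x axes differ in scale.

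The 2 control lines were compared as purified cells, since both carry Sun1. Of 25 tested chains 2 were higher in control line 2 (6.73% of all tested genes were higher) and 10 were lower, a share of 40.0% where 9.01% of all genes were lower. The median log2 difference was -0.92 over the tested chains and 0.00 over all genes. Of 14 tested fibroblast markers 7 were lower in control line 2, Lum, Prrx1, Dcn and Twist2 among them, and 1 was higher. The mitochondrial share of counts was 1.32% to 1.40% in control line 1 and 1.81% to 1.89% in control line 2. Their part in the collagen differences was not tested.

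The lower chains spanned the fibrillar, basement membrane and microfibrillar groups. Col3a1 had 1427 and 1455 CPM in control line 1 and 587 and 497 in control line 2 (-1.40 ± 0.11, 2 against 2 libraries, edgeR adjusted p = 1.16e-05). Col6a1 had 396 and 469 CPM against 174 and 199 (-1.21 ± 0.12, edgeR adjusted p = 6.2e-05). Col4a5 had 155 and 171 CPM against 84.2 and 71.6 (-1.05 ± 0.11, edgeR adjusted p = 7.84e-05). In each of these the libraries of a line lay close together and apart from the other line. All 3 tested type IV chains were lower, Col4a1 by -0.78 ± 0.11 and Col4a2 by -0.92 ± 0.13. Col5a1 (-0.71 ± 0.12), Col20a1 (-0.96 ± 0.21), Col16a1 (-0.40 ± 0.10) and Col1a1 (-0.47 ± 0.14) were lower as well, and Col5a3 fell by 1.00 ± 0.18. Col6a2 (-1.17 ± 0.44) and Col6a3 (-1.23 ± 0.56) had differences of like size and did not pass.

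Higher in control line 2 were Col7a1 (1.56 ± 0.40) and Col8a1 (0.34 ± 0.10). The calls of Col1a1 and Col8a1 held only without purified control 2 replicate 2, with adjusted p up to 0.219 and 0.24 in the 5 other fits without 1 library. Col16a1 was lost without either control 1 library or control 2 replicate 1 (adjusted p up to 0.141), Col7a1 without replicate 2 of either line (0.172 and 0.0822) and Col20a1 without control 1 replicate 2 (0.0888). The other 7 calls, Col3a1, Col4a1, Col4a2, Col4a5, Col5a1, Col5a3 and Col6a1, held in all 6 of these fits. The 1 cultured library per control line had Col3a1 at 201 and 79.7 CPM, Col6a1 at 35.9 and 15.2, Col5a1 at 261 and 130.0 and Col4a5 at 124 and 105, lower in control line 2 in each case and with no replicate.

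Whether the knockout effect differed between tumors and purified cells was tested as an interaction with control line 1 as the control. Of 31 tested chains 2 had a higher effect in tumors (4.82% of all tested genes did) and 1 a lower one (5.27%). For Col5a2 the effect in tumors exceeded that in purified cells by 3.49 ± 0.99 (edgeR adjusted p = 0.0356). This call was lost without any 1 of the 4 purified libraries, with adjusted p from 0.102 to 0.169. Purified control line 2 cells, which the interaction leaves out, had 0.316 and 0.739 CPM of Col5a2 and 84.2 and 71.6 of Col4a5. Against control line 2 alone neither chain was called in purified knockout cells, and both were called lower against control line 1 alone. For Col4a5 the difference of effects was 0.74 ± 0.15 (edgeR adjusted p = 0.00325). Its purified levels were 89.5 and 84.1 CPM in the knockout line against 155 and 171 in control line 1, and tumors were at 51.2 to 69.3 against 59.8 to 78.6. For Col7a1 it was -1.66 ± 0.40 (edgeR adjusted p = 0.0104) and was lost without purified control 1 replicate 2 (adjusted p = 0.147) or purified knockout replicate 2 (adjusted p = 0.0924).

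Chains of the same or a neighboring type were then followed over the tumors of each genotype, as 10 relations of log2 CPM with exact permutation tests and Benjamini-Hochberg adjustment. Col4a1 and Col4a2, the pair that shares its start region, varied together most closely. Pearson's r was 0.974 over 7 knockout tumors (exact p = 0.000397, adjusted p = 0.00198, Spearman's rho 0.964, exact p = 0.00278) and 0.988 over 8 control tumors (exact p = 2.48e-05, adjusted p = 0.000248, rho 1.00, exact p = 4.96e-05). Without the 2 tumors farthest from the median of Col4a1, r was 0.969 and 0.989. The exact p of the control tumors is the smallest that 8 tumors allow.

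Col6a1 and Col6a2 had r of 0.856 (exact p = 0.0192, adjusted p = 0.0385, rho 0.821, exact p = 0.0341) and 0.891 (exact p = 0.00454, adjusted p = 0.013, rho 0.833, exact p = 0.0154). Without the 2 farthest tumors r was 0.920 and 0.915. In knockout tumors that relation did not pass without tumor 1, 2, 4, 5 or 7, with adjusted p up to 0.0949. Col1a1 and Col1a2 had r of 0.792 (exact p = 0.0571, adjusted p = 0.0714, rho 0.429, exact p = 0.354) and 0.765 (exact p = 0.0263, adjusted p = 0.0439, rho 0.810, exact p = 0.0218). The control value fell to 0.498 without the 2 farthest tumors and so rests on them. Col1a1 and Col3a1 had r of 0.856 (exact p = 0.0371, adjusted p = 0.053, rho 0.429, exact p = 0.354) and 0.905 (exact p = 0.00518, adjusted p = 0.013, rho 0.857, exact p = 0.0107), or 0.498 and 0.654 without those tumors.

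Col5a1 and Col5a2 gave no relation that passed. Their r was 0.715 in knockout tumors (exact p = 0.0685, adjusted p = 0.0761, rho 0.786, exact p = 0.048) and 0.039 in control tumors (exact p = 0.922, adjusted p = 0.922, rho 0.405, exact p = 0.327). Without the 2 farthest tumors r was 0.433 and 0.473. The tumors of a genotype share no library, but library composition enters every CPM value, and its part in these relations was not tested.

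**Figure D4:**
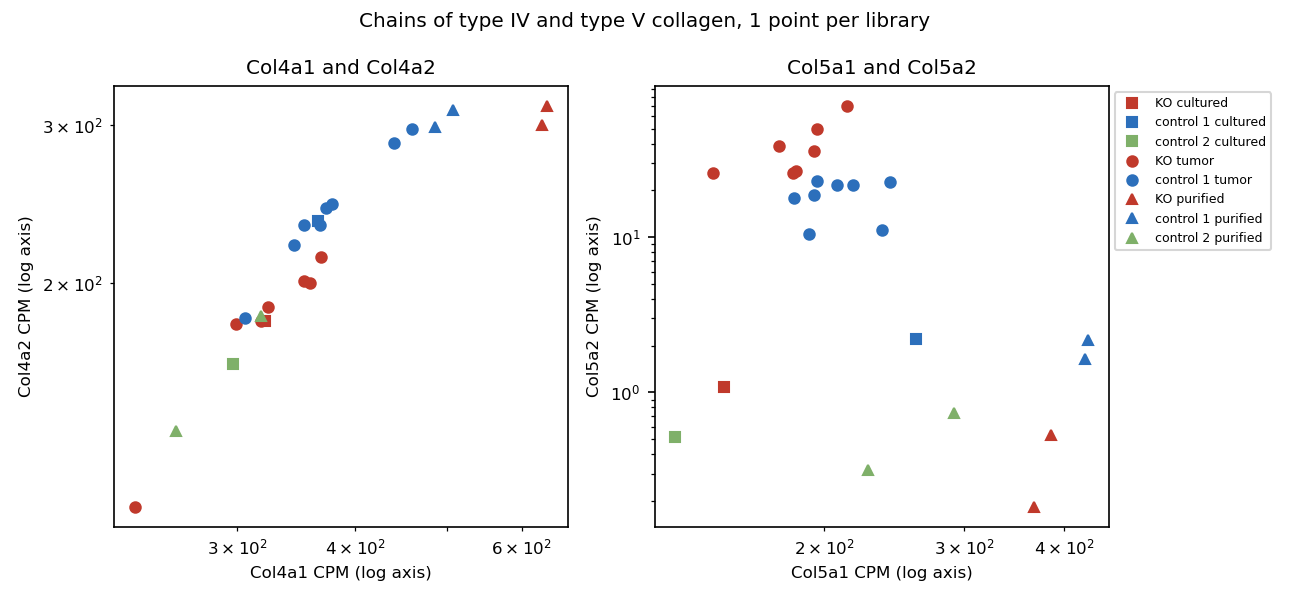
Col4a2 against Col4a1 and Col5a2 against Col5a1 in CPM on log axes, 1 point per library, with color for the line and shape for the setting. The 24 points of the type IV pair lie along a band, whereas in the type V pair the 15 tumors lie above 10 CPM of Col5a2 and the 9 libraries of cultured or purified cells below 3.

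Genes that act on collagen were counted from fixed lists. Of 17 tested genes for folding and modification 10 were higher in purified than in cultured cells and 0 lower, where 22.6% of all genes were higher and 21.7% lower. Among them were P3h3 (0.94 ± 0.09) and Crtap (0.63 ± 0.09), which act in prolyl 3-hydroxylation, P4ha1 (1.10 ± 0.15), a prolyl 4-hydroxylase subunit needed for helix stability, and Ppib (0.48 ± 0.08), a prolyl isomerase. Of 7 tested processing and crosslinking genes 5 were higher, with Loxl3 at 2.07 ± 0.09 and Tgm2 at 3.47 ± 0.26, and 1 was lower. Of 13 fibril partners 8 were higher, with Bgn at 4.84 ± 0.26 and Sparc at 1.22 ± 0.08, and 1 was lower. Of 10 basement membrane partners 6 were higher and 2 lower, Agrn (0.84 ± 0.09) and Nid1 (0.96 ± 0.12) among the higher.

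In knockout tumors, where 18.1% of all genes were higher and 19% lower, 0 of 12 tested basement membrane partners were higher and 6 were lower, among them Nid1 (-0.88 ± 0.08), which links laminin to type IV collagen, Lamb2 (-0.54 ± 0.08) and Lama3 (-0.61 ± 0.14). Of 19 folding genes 1 was higher, P4ha3 (1.52 ± 0.31), and 6 were lower, among them Mia3 (-0.36 ± 0.07), which loads procollagen into carriers, and P4hb (-0.30 ± 0.06). Of 10 processing and crosslinking genes 4 were higher, Lox (1.33 ± 0.25), Loxl1 (1.06 ± 0.28), Loxl2 (0.88 ± 0.24) and Adamts14 (0.23 ± 0.07), and 2 were lower. Of 15 fibril partners 3 were higher and 6 lower, with Postn (1.68 ± 0.24) and Dpt (1.32 ± 0.14) against Thbs2 (-0.97 ± 0.10) and Dcn (-1.02 ± 0.12). Collagen receptors had 1 of 8 higher, Lair1 (0.83 ± 0.23), and 2 lower, Ddr1 and Ddr2. Of 9 breakdown genes 2 were higher, Fap (1.54 ± 0.26) and Mmp2 (0.94 ± 0.26), and 2 lower, Mmp13 (-1.05 ± 0.19) and Mmp8 (-1.80 ± 0.41). Nid1 was lower in purified knockout cells as well (-1.03 ± 0.16), the single called gene of 10 basement membrane partners there.

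Between the control lines, where 6.73% of all genes were higher in control line 2 and 9.01% lower, 6 of 13 fibril partners were lower, with Eln at -3.56 ± 0.26, Lum at -5.72 ± 0.42, Dcn at -3.33 ± 0.29 and Fn1 at -1.02 ± 0.17, and 1 was higher. Of 8 processing and crosslinking genes 3 were lower, Loxl1 (-2.70 ± 0.53), Loxl4 (-0.55 ± 0.13) and Bmp1 (-0.38 ± 0.12), and 0 higher. Of 17 folding genes 3 were lower and 0 higher.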

How the data were processed

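Polyadenylated RNA libraries of 24 samples were analysed. Per the submitters' processing notes the authors used FastQC, STAR, RSEM and DESeq2 with mm10, whose versions those notes leave out. Per the file headers the authors deposited RSEM expected counts per gene, not normalized, and TPM, which corrects for transcript length. The authors' deposited comparison tables hold DESeq2 log2 fold changes of control over knockout and adjusted p-values. RSEM shares reads between similar genes, which can affect close paralogs.

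Expected counts were rounded and fitted over all genes with edgeR 4.0.16 in R 4.3.3 (quasi-likelihood test, robust, TMM scaling, filterByExpr with a minimum count of 10 and total of 15). P-values were adjusted by Benjamini-Hochberg over all genes tested and called under 0.05. CPM used TMM factors over all 24 libraries, and chain pairs used log2 CPM with a prior count of 2. Alternatives were DESeq2 1.42.0, its size factors, library size alone, upper quartile scaling, no filter and each library left out. Others were a replicate block, each control line alone and marker terms (Ptprc with Pecam1, Pdgfra with Pdgfrb). The fits were also run on simulated counts with the same spread setting for every gene, which real counts need not share. Their outcome is not reported here and lends no weight to the calls. No column lacked a sample.

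Named chains are those of the main trimers and all called members. From each gene list up to 4 called genes with the smallest p were named, except 1 that is not reported here. The members and lists were chosen with earlier results of these data known. Bounds use a floor of 3 counts over the group, and intervals are 95% exact binomial. Promoter windows are from RefSeq on GRCm38.p6, and gene positions from GENCODE M21.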

Additional observations from a re-analysis of the deposited data

Results flagged for a closer look

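In 5 of 56 groups of tumors tested for the highest or lowest library, 1 tumor stood apart from the rest by Dixon's 95% criterion, and chance gives about 1 in 20. Knockout tumor 5 was the highest for 2 fibrillar chains, with Col1a1 at 586 CPM (next 371) and Col3a1 at 969 CPM (next 719). Knockout tumor 6 was the lowest for Col4a2, at 113 CPM with the next at 180.0. Control tumor 1 was the highest for Col18a1, at 107 CPM with the next at 84.1, and control tumor 2 for Col27a1, at 1.68 CPM with the next at 0.816.

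For 3 chains the knockout effect against control line 1 differed between whole tumors and purified cells in edgeR's interaction test. Of these, Col4a5 and Col5a2 were not called in purified knockout cells against control line 2 alone, a line without whole tumors. The effect in tumors minus that in purified cells was 3.49 for Col5a2 (adjusted p = 0.0356), 0.74 for Col4a5 (adjusted p = 0.00325) and -1.66 for Col7a1 (adjusted p = 0.0104) on the log2 scale.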

How the results depend on the processing

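Among single chains, 763 of the values without 1 library kept direction and call and 81 lost the call. Of those under other settings 460 kept both, 34 lost the call and 2 reversed, Col5a2 (-0.030) and Col27a1 (-0.53) with the Ptprc and Pecam1 term. In knockout against control tumors that term left 0 chains higher and 0 lower, and the Pdgfra and Pdgfrb term 8 and 2. The replicate block called 6 higher and 7 lower, where 2436 and 2544 of 13752 genes were. Purified knockout cells had 3 chains higher with DESeq2 (585 of all 12474 genes) and 0 with the replicate block (156 of 12476). They had 3 higher and 6 lower against control line 1 (1038 and 1262 genes) and 10 and 2 against control line 2 (1369 and 1307). Against the mean of both lines they had 5 and 3 (1305 and 1265 genes). Control line 2 had 1 chain higher with library size scaling (667 of 12476 genes) and 1 with the replicate block (772). The interaction had 1 higher chain with no filter (537 of 24395 genes). It had 4 lower with DESeq2 (987 of 13284) and 2 lower with library size scaling (862 of 15033). Purified against cultured cells had 1 lower chain with control lines only (2159 of 12304 genes) and 1 with upper quartile scaling (2206 of 12287). Each of these comparisons, from purified knockout cells on, also changed in count without 1 library. For these counts the cause was not tested.

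With library size CPM, r of Col1a1 and Col3a1 in knockout tumors was 0.871 (adjusted p = 0.0425). Without 1 tumor, r ranged from 0.329 to 0.920 for that pair, from 0.158 to 0.951 for Col1a1 and Col1a2 in knockout tumors and 0.693 to 0.860 in control tumors, and from 0.837 to 0.916 for Col6a1 and Col6a2 in knockout tumors. For Col5a1 and Col5a2 in control tumors it ranged from -0.246 to 0.499, with reversed values of -0.202, -0.246 and -0.00863.

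The labels do not say whether replicate numbers pair samples. Over 9494 genes, same-numbered tumors correlated at -0.214 to 0.322, and 0 of 7 correlated best with their own number. Single chains can differ from this. With the replicate block the SE of the knockout effect in tumors went from 0.42 to 0.16 for Col14a1 and from 0.13 to 0.07 for Col6a1. For others it rose, as for Col12a1 (0.25 to 0.31). In purified cells the line pairs correlated at 0.009, -0.074 and -0.171. For the last a crossed pairing, chosen after seeing the data, called 824 genes higher and 1072 lower between the control lines against 840 and 1124 without a block. Upper quartile scaling raised the share of higher calls among all called genes from 48.7% to 60.1% between genotypes in tumors, and from 55.2% to 65.1% between knockout tumors and purified cells, where the median of all genes moved from 0.084 to 0.190. Outside tumors each line has 1 to 2 libraries, which limits the precision there.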
